A study of Mus musculus with 4 samples.

Results

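The transcripts described here are 10 genes of T cells and natural killer (NK) cells, listed by symbol and matched by Entrez identifier to RNA-sequencing tables of sorted tumor-associated macrophages (TAMs). They are Cd3d, Cd3e, Cd3g, Cd8a, Nkg7, Gzma, Gzmb, Prf1, Klrd1 and Ccl5, that is 10 of the 16739 genes with a value in any library, and all 10 had counts in all 4 libraries. Their level serves as a measure of lymphocyte RNA that came along with the macrophages. B16-F10 melanoma cells were injected under the abdominal skin of C57BL/6 mice aged 6 to 8 weeks, and cells positive for CD45, CD11b and F4/80 were sorted by FACS from the tumors 16 days later. The groups were wild type (labelled WT TAM1 and WT TAM2) and Trim24-/- (labelled KO TAM1 and KO TAM2), with 2 libraries each. The mutant mice were Trim24 flox/flox LysM-Cre animals and the controls their WT littermates, so deletion was directed by the lysozyme M locus to myeloid cells, and T and NK cells were not its target in either group. The names KO TAM1 and KO TAM2 are used here as labels, since the targeted transcript did not part the groups. Trim24 was at 5.82 and 2.12 CPM (expected counts scaled to a common library total) in WT TAM1 and WT TAM2 and at 3.43 and 0.411 CPM in KO TAM1 and KO TAM2. Sex-linked transcripts parted the groups completely, with Xist at 10.9 and 6.51 CPM in WT against 437 and 256 CPM in KO libraries, and Ddx3y at 73.6 and 102 against 0.426 and 0.411 CPM, although the methods give the mice as matched for sex, so genotype and sex cannot be told apart in any comparison below.

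T cells recognise antigen through a T cell receptor that is held at the surface by the CD3 chains, which also pass the signal into the cell. CD8 marks the cytotoxic T cells, and these share with NK cells a killing machinery in which perforin opens the membrane of the target cell and granzymes, serine proteases stored in the same granules, enter and start cell death. In tumors these cells are the main antitumor effectors, and the CD3 chains are regarded as T cell products, which makes them the most direct trace of T cells in a macrophage sort. Ccl5 is also made by macrophages. Whether other cells in the sort added to the transcripts of the other 9 genes was not tested.

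The genes lie on 7 chromosomes, but the CD3 genes sit together. On GRCm38, Cd3g occupies chr9:44969572-44980431 on the minus strand, Cd3d chr9:44981786-44987339 on the plus strand, and Cd3e chr9:44998740-45009627 on the minus strand, so that Cd3g and Cd3d start 1355 bases apart and point away from each other. RefSeq promoter sequence (GRCm38.p6) was at hand for 8 of the 10 genes, and the 250 bases before the start were searched on both strands for 3 motifs of factors that act in T and NK cells: TGTGGT, bound by Runx proteins, AGGTGT, bound by T-box proteins, and the E-box CAGGTG, of which the last pair can overlap. AGGTGT stood in 6 of the 8 and in 11.8% of all 32851 promoters of the same length, TGTGGT in 4 of the 8 and in 14.0% of all, and CAGGTG in 4 of the 8 and in 17.2% of all. A match is a description of the letters in this window and not a bound site. The promoters of the neighbours Cd3d and Cd3g and of both granzymes are shown as the examples of the receptor and the granule genes whose windows hold no annotated exon, with the motifs in capitals.
Cd3d, chr9:44981536-44981785, plus strand: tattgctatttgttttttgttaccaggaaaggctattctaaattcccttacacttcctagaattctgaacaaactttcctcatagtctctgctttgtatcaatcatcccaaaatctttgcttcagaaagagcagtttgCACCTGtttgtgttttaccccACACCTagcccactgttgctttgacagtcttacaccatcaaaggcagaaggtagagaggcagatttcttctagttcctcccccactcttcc
Cd3g, chr9:44980432-44980681, minus strand: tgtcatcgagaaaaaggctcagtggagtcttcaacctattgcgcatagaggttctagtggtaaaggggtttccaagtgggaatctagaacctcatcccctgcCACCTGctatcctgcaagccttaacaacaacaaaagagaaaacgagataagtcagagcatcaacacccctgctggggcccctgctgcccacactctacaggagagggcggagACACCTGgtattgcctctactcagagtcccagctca
Gzma, chr13:113100982-113101231, minus strand: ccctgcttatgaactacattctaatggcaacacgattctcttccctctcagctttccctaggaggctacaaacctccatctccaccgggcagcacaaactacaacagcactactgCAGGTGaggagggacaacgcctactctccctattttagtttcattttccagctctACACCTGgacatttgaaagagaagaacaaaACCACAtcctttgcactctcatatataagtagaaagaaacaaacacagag
Gzmb, chr14:56262335-56262584, minus strand: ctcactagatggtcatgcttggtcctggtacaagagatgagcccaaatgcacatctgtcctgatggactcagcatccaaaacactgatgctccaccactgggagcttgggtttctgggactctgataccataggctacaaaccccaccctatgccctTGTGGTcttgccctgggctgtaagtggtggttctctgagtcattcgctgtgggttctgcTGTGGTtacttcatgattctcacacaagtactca
Gzmb thus held TGTGGT at 2 places and neither of the other motifs, Gzma held each of the 3, and the CD3 pair held AGGTGT and CAGGTG without TGTGGT.

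The libraries held 4476122 to 5172407 expected counts, at which 3 counts correspond to 0.606 to 0.639 CPM. Together the 10 transcripts made up 0.0203% of all counts in WT TAM1 (95% Clopper-Pearson interval 0.0190% to 0.0216%), 0.0113% in WT TAM2 (0.0103% to 0.0123%), 0.0431% in KO TAM1 (0.0413% to 0.0450%) and 0.0115% in KO TAM2 (0.0106% to 0.0125%). These intervals cover counting error only. For this sum KO TAM1 stood apart from the other libraries, whereas KO TAM2 lay within the range of the WT libraries. For the CD3 chains alone KO TAM2 was the lowest library, at 0.00186% (0.00150% to 0.00227%). WT TAM1 was then at 0.00370%, WT TAM2 at 0.00259% (0.00214% to 0.00311%) and KO TAM1 at 0.00671%, and the intervals of KO TAM2 and WT TAM2 overlapped. On the CPM scale the sum of the 10 was 197 and 105 in the WT libraries (151 ± 64.9, SD, n = 2) and 452 and 122 in the KO libraries (287 ± 233, SD, n = 2), that is 3.69-fold higher in KO TAM1 than in KO TAM2 and 2.29-fold higher than in WT TAM1, the next library. The spread between the KO libraries was larger than the difference between the group means. Fewer cells of a type and less RNA per cell cannot be told apart in such bulk libraries.

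The CD3 chains and CD8 alpha, the part of the list that serves antigen recognition by T cells, were present in every library at low levels. Cd3d, the delta chain, was at 13.7 and 12.1 CPM in WT TAM1 and WT TAM2 and at 25.3 and 8.02 CPM in KO TAM1 and KO TAM2. Cd3e, the epsilon chain, was at 4.24 and 3.96 CPM in WT and at 16.4 and 2.67 CPM in KO libraries. For both genes KO TAM1 was the highest library and KO TAM2 the lowest, with the WT libraries close to each other in between. Cd3g, the gamma chain, was at 18.0 and 8.13 CPM in WT and at 28.5 and 9.04 CPM in KO libraries. Cd8a, the alpha chain of the co-receptor that binds MHC class I, was at 15.1 and 10.6 CPM in WT and at 35.4 and 11.1 CPM in KO libraries. For these genes KO TAM2 and WT TAM2 were close to each other and below WT TAM1. Which of them was lowest turned on the scale, since KO TAM2 was above WT TAM2 in CPM but below it in FPKM, at 8.44 against 8.65 for Cd3g and 3.32 against 3.62 for Cd8a. The KO TAM1 level exceeded that of the next library 3.87-fold for Cd3e, 2.33-fold for Cd8a, 1.85-fold for Cd3d and 1.59-fold for Cd3g. Cd3d was the only gene of the 10 whose expected counts were not whole numbers. RSEM gives such values where reads can be assigned to more than 1 feature. In GENCODE, Cd3e overlaps an antisense gene and an unclassified transcript on its own strand. Reads of the antisense gene could not be told apart without strand, and those of the unclassified transcript not even with it.

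The granule genes differed in how far they varied between libraries, with Gzmb varying most of the 10 genes within either group. Gzmb, granzyme B, was at 60.4 and 19.0 CPM in WT TAM1 and WT TAM2 and at 109 and 12.5 CPM in KO TAM1 and KO TAM2, an 8.67-fold range within the KO group and a 3.18-fold range within the WT group. Prf1, perforin, was at 18.0 and 6.25 CPM in WT and at 57.7 and 10.3 CPM in KO libraries. Gzma, granzyme A, was at 4.85 and 1.88 CPM in WT and at 12.1 and 3.29 CPM in KO libraries. In all of these the first library of each group was above the second, and the values of the groups overlapped. Nkg7, a granule membrane protein of cytotoxic cells, was at 37.8 and 20.2 CPM in WT and at 100 and 36.2 CPM in KO libraries, so that KO TAM2 was almost level with WT TAM1. The granule genes therefore did not share 1 order of libraries: KO TAM2 was the lowest of the 4 for Gzmb but above WT TAM2 for Gzma, Prf1 and Nkg7.

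Klrd1 encodes CD94, which pairs with NKG2 receptors on NK cells and some cytotoxic T cells. It was at 5.05 and 4.38 CPM in WT and at 10.6 and 2.05 CPM in KO libraries, the same order as Cd3d and Cd3e, on 10 to 50 expected counts. Ccl5, a chemokine that attracts T cells, monocytes and other leukocytes, was at 19.99 and 18.75 CPM in WT and at 56.9 and 27.3 CPM in KO libraries. It was the only one of the 10 with both KO libraries above both WT libraries, a pattern found in 21.5% of all genes tested. Its p in an exact permutation test (two-sided) was 0.333, the smallest that 2 libraries against 2 allow.

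**Figure D1:**
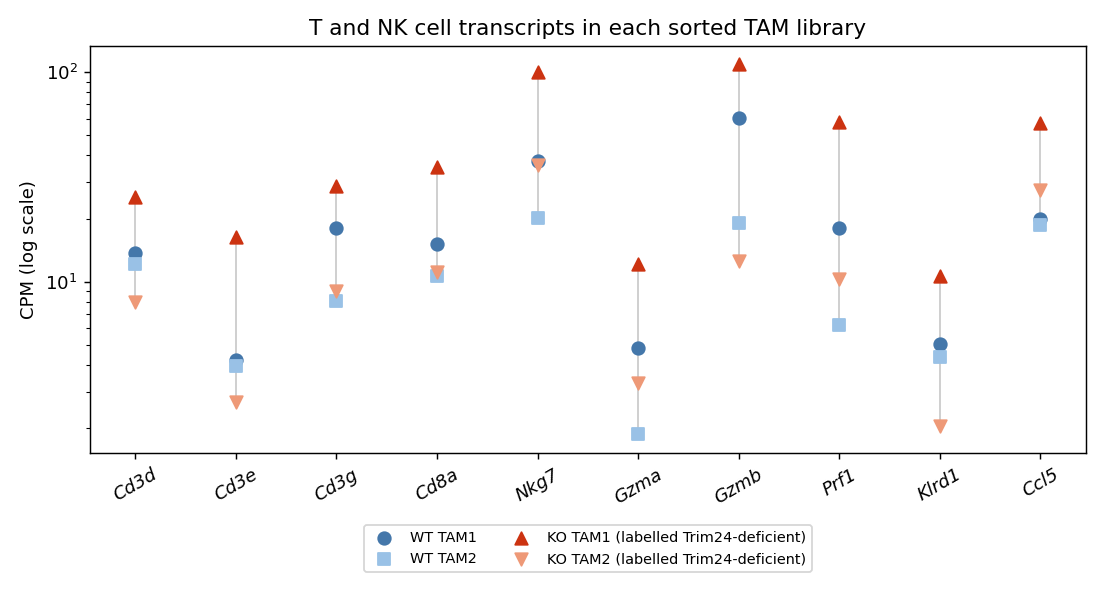
CPM on a log axis of each of the 10 transcripts in the 4 libraries, 1 point per library and a grey line over their range. The KO TAM1 point is the top one for all 10 genes, whereas KO TAM2 lies among or below the WT points for all but Ccl5.

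Across the 10 genes the same library was on top throughout. KO TAM1 was the highest library for 10 of 10, against 25.5% of all genes tested, and it was at least 2 times as high as KO TAM2 for 10 of 10, against 5.43% of all genes tested, 50.2% of which were higher in KO TAM1 than in KO TAM2 by any amount. Within WT, TAM1 was above TAM2 for 10 of 10, against 49.0% of all. On log2 CPM with a prior count of 2, the median difference of KO TAM1 from KO TAM2 was 1.70 over the 10 genes and 0.0025 over all genes tested, and that of WT TAM1 from WT TAM2 was 0.69 and -0.0083. These differences set single libraries against each other and have no replicate check.

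Whether the label Trim24-deficient went with more or less T and NK cell transcript was asked with edgeR's quasi-likelihood test on all 11302 genes that passed the filter on low counts, among them all 10 transcripts. With the thresholds of a 1.5-fold change and an adjusted p of 0.05, 0 of the 10 were called, while 0.372% of all genes tested were called in either direction and 0.292% as higher. At an unadjusted p under 0.05 there were 2 of the 10, Nkg7 and Ccl5, against 12.2% of all genes, and DESeq2 called 0 of the 10 and 1.38% of all genes. All 10 log2 fold changes were above 0, from 0.37 for Cd3d to 1.48 for Prf1, with a median of 0.98 against -0.0059 over all genes. The smallest adjusted p from edgeR was that of Ccl5, at 1.12 on the log2 scale (standard error 0.32, adjusted p = 0.217). Nkg7 had 1.23 (standard error 0.44, adjusted p = 0.305), Prf1 1.48 (standard error 0.69, adjusted p = 0.421) and Gzmb 0.61 (standard error 0.77, adjusted p = 0.797). For the remaining genes the standard error was at least 0.46 and the adjusted p from edgeR at least 0.499.

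Direction and call both turned on which KO library was kept. Without KO TAM1, 8 of the 10 log2 fold changes were below 0, against 52.7% of all genes in that fit, from -1.66 for Gzmb to -0.031 for Gzma, and only Nkg7 (0.32) and Ccl5 (0.50) stayed above 0. In that fit Gzmb was called as lower in KO TAM2 than in WT (standard error 0.41, edgeR's adjusted p = 0.0183), where 3.46% of all genes were called in either direction and 1.27% as lower. Without KO TAM2, 8 of the 10 were called as higher, against 3.74% of all genes called higher and 5.54% called in either direction. In that fit the log2 fold changes were 0.97 for Cd3d (adjusted p = 0.064) and 1.17 for Klrd1 (adjusted p = 0.199), the 2 genes not called by edgeR, and from 1.13 for Cd3g to 2.25 for Prf1 among the called. In the fits without a KO library, the single one left in that group is assumed to vary like the others. With the replicate number as a block, Nkg7, Prf1 and Ccl5 were called as higher, where 5.61% of all genes were called, although no source says that the number pairs the libraries. The summed CPM went from a log2 ratio of 0.93 with all libraries to -0.30 without KO TAM1 and 1.58 without KO TAM2.

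**Figure D2:**
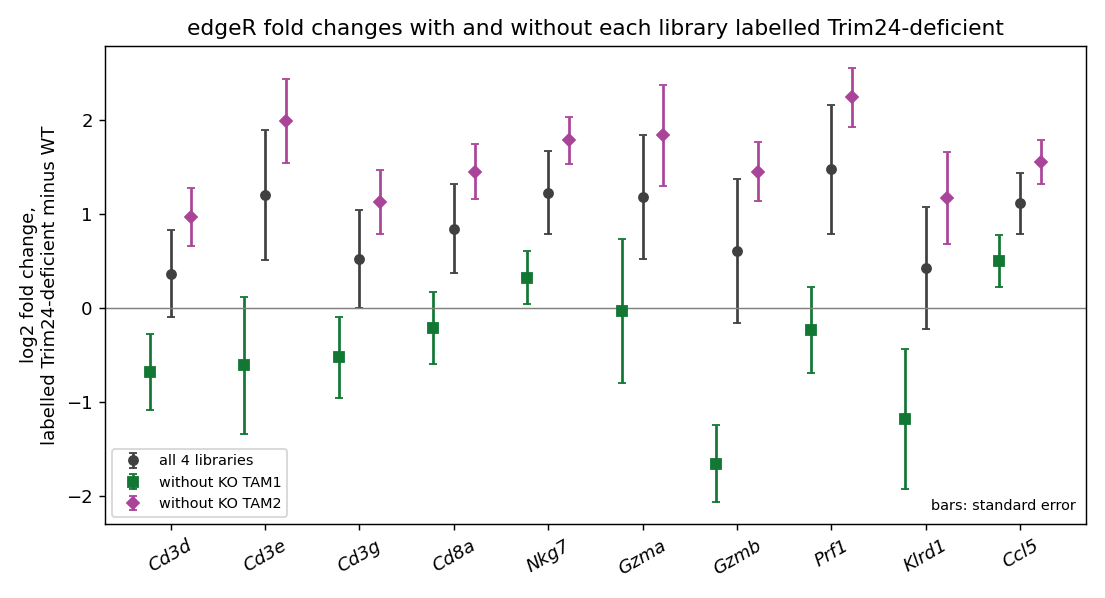
Log2 fold change from edgeR, labelled Trim24-deficient minus WT, with its standard error as the bar, for each transcript in the fit of all 4 libraries and in the fits that leave out KO TAM1 or KO TAM2. Without KO TAM1 the points fall below 0 for all genes but Nkg7 and Ccl5, and without KO TAM2 they lie at 0.97 or more.

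To compare the makeup of the lymphocyte transcripts apart from their amount, each gene was set against the summed counts of Cd3d, Cd3e and Cd3g of the same library, 178 and 116 counts in WT TAM1 and WT TAM2 and 330 and 96 in KO TAM1 and KO TAM2. Cd8a kept nearly 1 ratio, at 0.421, 0.440, 0.503 and 0.562 counts per CD3 count in the order WT TAM1, WT TAM2, KO TAM1 and KO TAM2. All of its 95% exact intervals overlapped, the widest running from 0.395 to 0.793 in KO TAM2. Gzmb did not keep 1 ratio. It was at 1.68 (1.39 to 2.03) in WT TAM1 and 1.55 (1.34 to 1.78) in KO TAM1, but at 0.784 (0.590 to 1.04) in WT TAM2 and 0.635 (0.453 to 0.885) in KO TAM2, so that the libraries fell into pairs that cut across the labels.
The ratio of Ccl5 ran the other way, higher in TAM2 than in TAM1 within both groups. It was 0.556 (0.431 to 0.715) in WT TAM1, 0.776 (0.582 to 1.03) in WT TAM2, 0.809 (0.686 to 0.954) in KO TAM1 and 1.39 (1.06 to 1.82) in KO TAM2. The highest ratio of Ccl5 thus stood in KO TAM2, the library with the fewest CD3 counts, as did those of Cd8a and Nkg7. The CD3 count is the divisor, so a small one raises every ratio of its library. Nkg7 had 1.05 (0.851 to 1.30) and 0.836 (0.632 to 1.10) in the WT libraries and 1.42 (1.23 to 1.64) and 1.83 (1.42 to 2.38) in the KO libraries. Both KO ratios lay above both WT ratios for Nkg7, Cd8a, Gzma, Prf1 and Ccl5, but not for Gzmb and Klrd1. All ratios of a library share its CD3 divisor, so these genes are not separate observations. No share over all genes was computed for such ratios. In CPM only Ccl5 had both KO libraries above both WT libraries, a pattern of 21.5% of all genes tested. For Nkg7 the intervals of WT TAM1 and KO TAM1 overlapped. Prf1 spanned the widest range, 3.18-fold, from 0.259 in WT TAM2 to 0.821 in KO TAM1. Gzma and Klrd1 rested on 9 to 57 counts, and their ratios spanned 2.23-fold and 1.74-fold with overlapping intervals. The ratios compare libraries for 1 gene at a time and not genes with each other, since the counts are not per length, and their intervals cover counting error only.

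**Figure D3:**
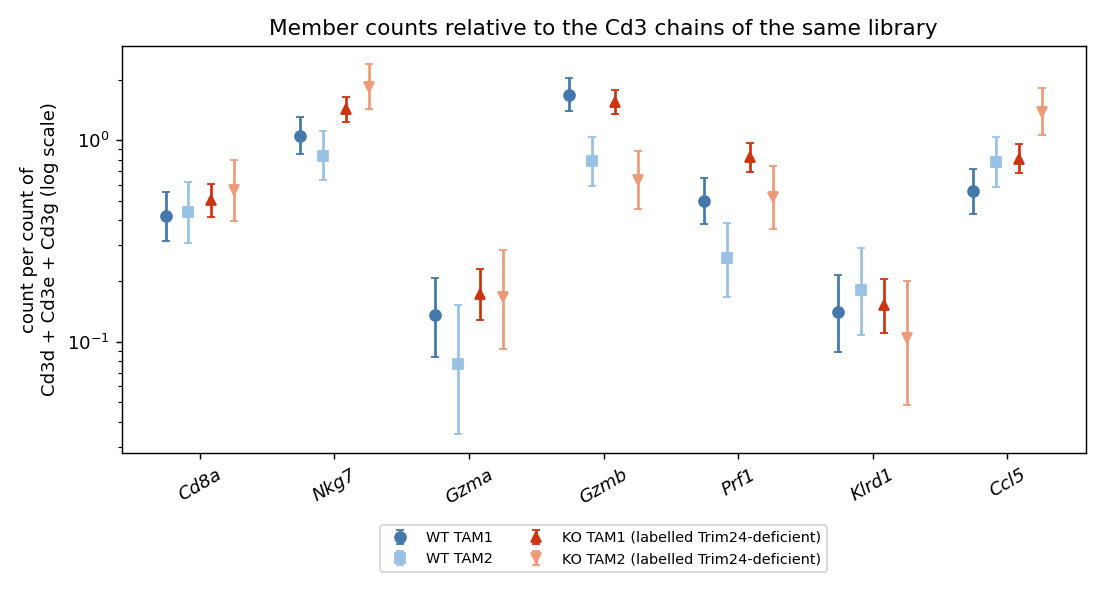
Expected counts of 7 transcripts divided by the summed counts of Cd3d, Cd3e and Cd3g of the same library, on a log axis, with 95% exact intervals for counting error as bars. The Cd8a points lie between 0.421 and 0.562, while Gzmb parts the libraries TAM1 from TAM2 of either label.

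Per transcript length, the highest of the 10 were Nkg7 and Ccl5, with FPKM means over the 4 libraries of 59.9 and 54.4, followed by Gzmb at 35.1. Cd3g at 15.6, Cd3d at 11.1 and Prf1 at 10.9 came next, and Klrd1, Gzma, Cd8a and Cd3e were between 4.68 and 6.49 FPKM. The ranges over the 4 libraries of neighbours in this order overlapped throughout. The summed FPKM of the CD3 chains was 30.63% and 19.97% of the FPKM of Ptprc, which encodes the pan-leukocyte antigen CD45, in WT TAM1 and WT TAM2, and 39.5% and 15.7% of it in KO TAM1 and KO TAM2. This is a ratio of transcript levels and not a share of cells, because T cells and macrophages differ in how much of each transcript they hold.

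The macrophage identity of the sorted cells was clear in every library. Csf1r, the receptor for the macrophage growth factor CSF1, was at 345 and 378 FPKM in WT and at 337 and 377 FPKM in KO libraries, and Adgre1, which encodes F4/80, at 326 and 371 against 363 and 374 FPKM. Both varied far less between libraries than the T and NK transcripts. Not all macrophage markers were as even. Of 10 listed, all tested, 0 were called by edgeR and 5 were highest in KO TAM1. The shares over all genes tested were 0.372% and 25.5%. Lyz2, with the highest mean CPM of the list, was at 5139 and 3606 FPKM in WT and at 6531 and 4823 FPKM in KO libraries. Cd68 was lowest in KO TAM1, at 1184 FPKM. Itgam, which encodes CD11b, was highest in KO TAM1 at 236 FPKM, with 159, 111 and 147 FPKM in WT TAM1, WT TAM2 and KO TAM2. Melanocyte genes were present too, with tyrosinase, Tyr, at 70.4 and 75.7 FPKM in WT and 59.8 and 77.8 FPKM in KO libraries, above the level of every CD3 chain, and the summed CPM of 8 melanoma markers was lowest in KO TAM1 at 619 against 792 to 829 elsewhere.

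**Figure D4:**
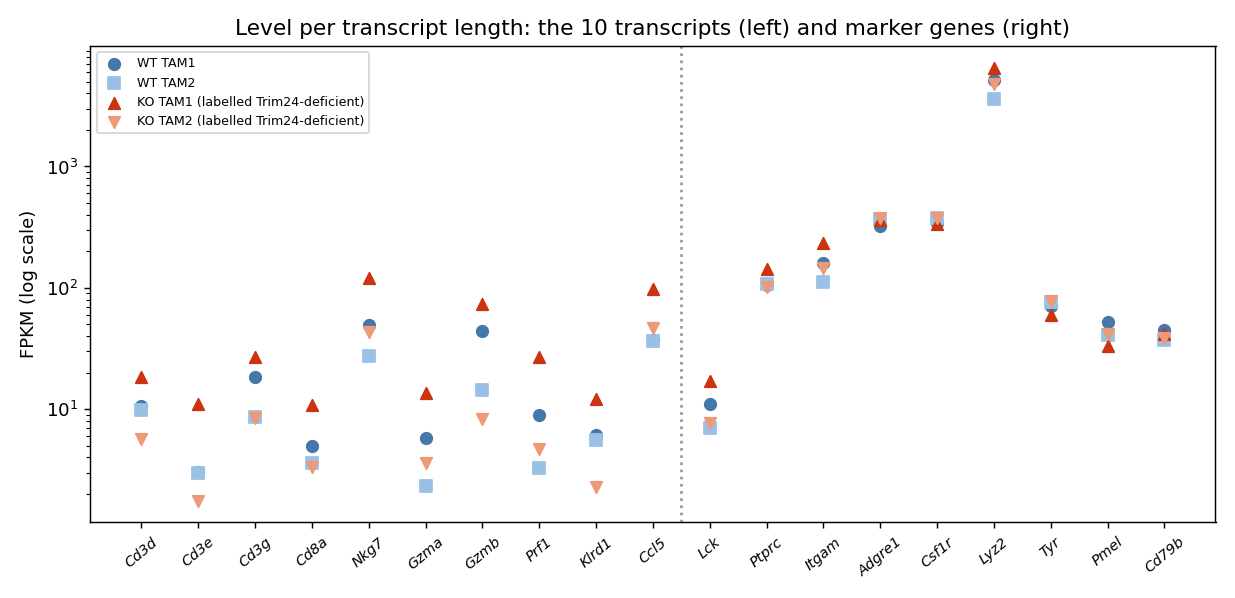
FPKM on a log axis of the 10 transcripts, left of the dotted line, and of marker genes, right of it, in the 4 libraries. The macrophage genes Adgre1 and Csf1r lie between 326 and 378 FPKM in every library, above the points of all 10 transcripts.

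Other genes of T cell receptor signalling had the same library on top. Of 21 listed genes 18 were tested, none was called in either direction by edgeR, and KO TAM1 was the highest library for 16 of the 18. Over all genes tested, 0.372% were called and 25.5% were highest in KO TAM1. The median log2 fold change of the 18 was 0.63 and turned to -0.098 without KO TAM1. Lck, the kinase that starts signalling at the receptor, was at 22.6 and 14.0 CPM in WT and at 37.9 and 17.5 CPM in KO libraries. Cd8b1, the beta chain of CD8, was at 10.3 and 6.76 against 31.8 and 8.07 CPM. Il7r, the interleukin-7 receptor, and Cd2, an adhesion receptor, were in the same list at 7.42 and 11.2 against 21.4 and 14.6 CPM, and at 8.88 and 7.08 against 15.8 and 8.01 CPM. Cd4, the co-receptor of helper T cells, and Bcl11b were singled out after their values were seen, since they did not share this order. Cd4 was at 4.44 and 11.3 CPM in WT and at 5.96 and 4.73 CPM in KO libraries, highest in WT TAM2. Bcl11b was highest in WT TAM2 too, at 2.01 and 3.45 CPM in WT and 2.98 and 0.411 CPM in KO libraries.
Genes of NK and cytotoxic lymphocytes showed the pattern in all that were tested. Among those below the filter on low counts, Gzmk and Eomes did not, as given in the last section. The NK receptor genes Ncr1, Klrb1c and Klre1 were below the filter too. In KO TAM1, their highest library, they had 18, 20.05 and 15 expected counts, and elsewhere 2 to 8.26. NK cells were not told apart from cytotoxic T cells. Of 20 listed genes 13 were tested, none was called by edgeR, and KO TAM1 was the highest library for 13 of 13. The shares over all genes tested were 0.372% called and 25.5% highest in KO TAM1. The median log2 fold change was 0.90. It became -0.75 without KO TAM1, over the 12 genes tested in that fit, of which 7 were below 0. Klrk1, which encodes the activating receptor NKG2D, was at 42.8 and 19.2 CPM in WT and at 162 and 59.4 CPM in KO libraries (1.83 on the log2 scale, standard error 0.47, edgeR's adjusted p = 0.173). Il2rb, a chain of the interleukin-2 and interleukin-15 receptors, was at 44.6 and 20.4 against 84.3 and 21.6 CPM, Sh2d2a, an adaptor of T cell signalling, at 37.5 and 27.0 against 70.9 and 40.6 CPM. Ifng, the interferon-gamma gene, was at 7.88 and 3.96 CPM in WT and at 39.8 and 7.40 CPM in KO libraries, again with KO TAM2 within the WT range.
Of 10 listed genes that release and handle granule contents, several of which macrophages also use, 0 were called by edgeR, 2 had an unadjusted p under 0.05, and KO TAM1 was the highest library for 9. The shares over all genes tested were 0.372%, 12.2% and 25.5%. Ctsc, the cathepsin that activates granzymes and is abundant in myeloid cells, was at 3706 and 3047 CPM in WT and at 5479 and 4383 CPM in KO libraries. Srgn, the proteoglycan serglycin that packs granule proteases, was at 243 and 164 against 441 and 348 CPM. The summed CPM of KO TAM1 was 1.25-fold that of KO TAM2, a sum made up mostly of Ctsc and Lamp1. Other genes of the list differed more between these libraries, among them Stx11, a syntaxin needed for granule release, at 31.7 and 18.5 CPM in WT and 67.1 and 33.5 CPM in KO libraries, and Serpinb6b, at 9.17 and 3.57 against 18.2 and 5.58 CPM.
Of 10 chemokines and receptors around Ccl5, 0 were called by edgeR, 5 had an unadjusted p under 0.05, and KO TAM1 was the highest library for 6, where the shares over all genes were 0.372%, 12.2% and 25.5%. Cxcl9, an interferon-induced chemokine that attracts T cells, was at 290 and 103 against 622 and 218 CPM. Cxcl10, which binds the same receptor, was lowest in KO TAM2, at 322 and 232 CPM in WT and 509 and 174 CPM in KO libraries. Cxcl16 hardly varied, at 443 and 477 against 448 and 504 CPM.

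**Figure D5:**
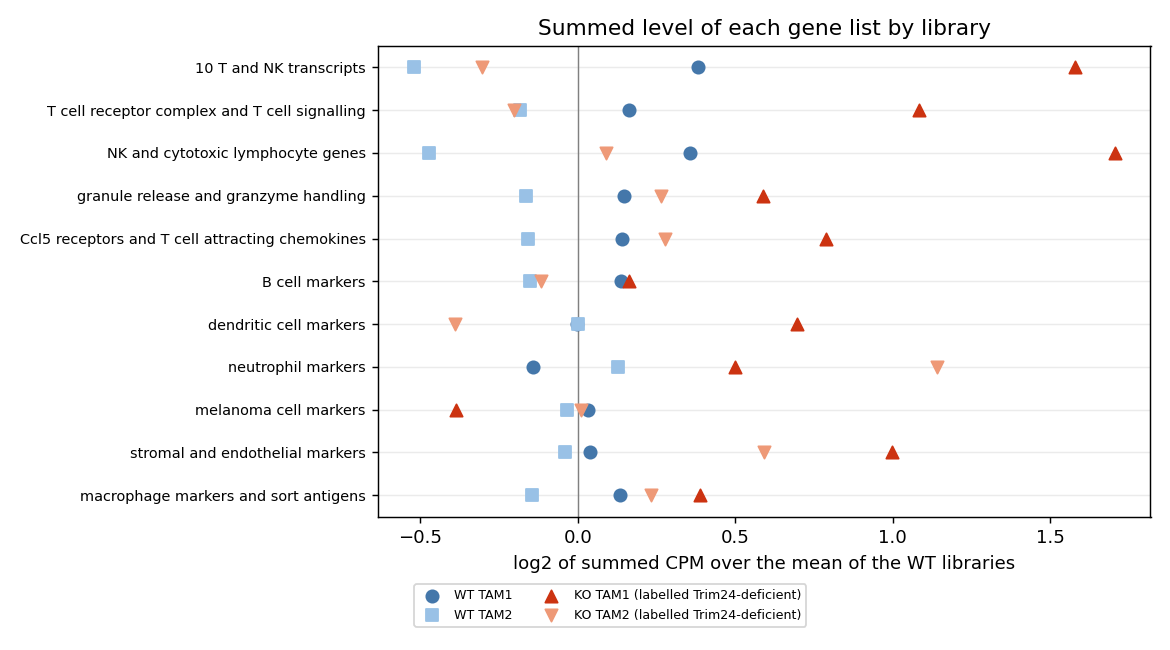
Summed CPM of each gene list by library, as log2 over the mean of the WT libraries, 1 point per library. KO TAM1 lies at 1.58 for the 10 transcripts and at 1.71 for the NK list, while KO TAM2 lies at -0.30 and 0.09, and for the neutrophil markers KO TAM2 is the highest library.

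Markers of other cells that the gate could hold did not all move with the T and NK transcripts. Of 8 dendritic cell markers 5 were tested and 0 called by edgeR, against 0.372% of all genes tested. The summed CPM of the 8 was 49.4 and 49.5 in WT and 80.2 and 37.7 in KO libraries. Of the 5 tested, and against 25.5% of all genes tested, 2 were highest in KO TAM1. These were Xcr1, the receptor of cross-presenting dendritic cells for the chemokine Xcl1, at 22.3 and 16.2 CPM in WT and 46.5 and 13.3 CPM in KO libraries, and Clec9a of the same cells, at 3.63 and 1.04 against 14.5 and 1.03 CPM. The other tested markers had other orders. Flt3, a growth factor receptor of dendritic cells, was at 3.84 and 5.42 CPM in WT and 1.28 and 0.205 CPM in KO libraries and was the only one with an unadjusted p under 0.05 (-2.61 on the log2 scale, edgeR's adjusted p = 0.207). Cd209a was highest in WT TAM2, at 11.7 CPM, and Ccr7 in KO TAM2, at 17.5 CPM. Their part in the pattern of the T and NK transcripts was not tested. Of the B cell markers, Ms4a1 was at 0.822 CPM or less in every library, near the level of 3 counts, whereas Cd79b was at 43.1 to 53.7 CPM. Of 8 stromal and endothelial markers 3 were tested and 0 called by edgeR, against 0.372% of all genes tested. The summed CPM of the 8 was 24.6 and 23.3 in WT and 47.9 and 36.2 in KO libraries. This difference lay in Pecam1, an adhesion molecule of endothelium and leukocytes, at 15.95 and 5.63 against 36.0 and 21.99 CPM, whereas the endothelial receptor Kdr was highest in WT TAM2, at 9.17 CPM. Of 9 neutrophil markers 5 were tested and 0 called by edgeR, against 0.372% of all genes tested. The summed CPM of the 9 was 185 and 223 in WT and 288 and 449 in KO libraries. S100a8 was at 118 CPM in KO TAM2 against 35.1 CPM in KO TAM1. Of the 5 tested, 1 was highest in KO TAM1, against 25.5% of all genes tested. This was Csf3r, at 87.1 and 97.0 CPM in WT and 170 and 157 CPM in KO libraries. Cxcr2 was highest in WT TAM2, at 83.9 CPM, and lowest in KO TAM1, at 42.9 CPM.

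The genes whose pattern over the 4 libraries was most like that of the CD3 chains were found by the Euclidean distance between centred log2 CPM values, over 11201 genes apart from the 10. The closest was Xcr1, at a distance of 0.092. It was followed by Cd247, the zeta chain of the T cell receptor complex, at 0.168 (4.24 and 2.50 CPM in WT, 9.37 and 2.26 CPM in KO libraries), by Cd160 at 0.207, Hip1r at 0.218 and Cd27, a costimulatory receptor of T and NK cells, at 0.227. Among the 10 themselves, Cd8a at 0.288 and Klrd1 at 0.464 were close to the CD3 mean, and Prf1 at 1.11 and Gzmb at 1.22 were the farthest. With 4 libraries this is a description of order and size only.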

How the data were processed

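RNA of CD45+ CD11b+ F4/80+ TAMs from B16 tumors was sequenced in 2 WT libraries and 2 libraries labelled Trim24-deficient. Alignment by the authors used Bowtie against GRCm38/mm10, followed by RSEM, and they deposited per gene an expected count, which is not normalized, an FPKM value and a transcript length, which was used only to name the scale. Versions and strand are not given in the sources used here. A gene missing from a table was set to 0, and 16698 of 16739 genes matched a RefSeq symbol.

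Expected counts were rounded and tested with edgeR 4.0.16 in R 4.3.3 (filterByExpr, TMM, glmQLFit, glmQLFTest, Benjamini-Hochberg adjustment, no block), at the thresholds of the study's methods, a fold change of 1.5 and a false discovery rate of 0.05. CPM values were scaled by TMM. Standard errors are the log2 fold change divided by the square root of F. Nothing says whether the libraries of a group came from separate mice, so p-values measure the spread between these libraries, and with 2 against 2 an exact permutation p cannot go below 0.333. Replicates were not one library deposited again: chi-square over its degrees of freedom was 9.05 in WT and 20.1 in the other group.

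The members and lists were chosen with earlier results of these data known. Named were the 10 members, listed genes that were called or among the 4 with the highest mean CPM of their list, the 5 genes most like the CD3 chains, and genes that check the labels. Ptprc, Itgam and Adgre1 were added as the sort antigens. Cd4, Bcl11b, Ms4a1, Flt3, Stx11, Serpinb6b, Gzmk, Eomes, Ncr1, Klrb1c and Klre1 were picked after their values were seen. Alternatives were a replicate block, DESeq2 1.42.0, library totals, other filters, FPKM on a log2 scale with a pseudocount of 1 or 0.1 in limma 3.58.1, and each library left out. Libraries held 4476122 to 5172407 counts, which leaves genes at a few CPM with wide counting error. The scripts were tested on simulated data.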

Additional observations from a re-analysis of the deposited data

How the results depend on the processing

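The number of genes called among all tested, 42, was 634 with the replicate number as a block, 156 with DESeq2, 24 with limma on log2(FPKM + 1) and 0 with limma on log2(FPKM + 1) for all genes (1954 at an unadjusted p under 0.05), and 25 to 652 with 1 library left out (66 without WT TAM1, 25 without WT TAM2, 405 without KO TAM1, 652 without KO TAM2), where a lone library is assumed to vary like the others. Of the 10 T and NK transcripts, 0 were called, against 3 (Prf1, Ccl5 and Nkg7, all higher) with the block and 0 to 8 with 1 library left out: 8 higher without KO TAM2, and 1, Gzmb, lower without KO TAM1. Samples of both groups carry the numbers 1 and 2, but no source says that a number marks a shared litter or day, and the deviations of same-numbered libraries correlated at 0.165 across genes, so the block is given here only as an alternative. The summed CPM of the 10, 151 in WT and 287 in the libraries labelled Trim24-deficient, was 30.06 and 44.98 for the CD3 chains alone, and ranged from 105 to 197 and from 122 to 452 with 1 library left out, its log2 ratio from -0.30 to 1.58. Single log2 fold changes with 1 library left out ranged from -0.68 to 0.97 for Cd3d, -0.61 to 1.99 for Cd3e, -0.53 to 1.22 for Cd3g, -0.21 to 1.45 for Cd8a, 0.32 to 1.79 for Nkg7, -0.031 to 2.04 for Gzma, -1.66 to 1.69 for Gzmb, -0.24 to 2.45 for Prf1, -1.18 to 1.17 for Klrd1 and 0.50 to 1.55 for Ccl5, and every value below 0 came without KO TAM1. With limma on log2(FPKM + 0.1) Cd3d was at -0.0016, Gzmb at -0.021 and Klrd1 at -0.14, and Klrd1 was at -0.064 with log2(FPKM + 1), with and without the filter. The cause of these reversals was not tested. Of 119 values of single transcripts under alternatives, 95 kept their direction and stayed on the same side of the threshold. Gzma could not be tested with at least 10 counts in every sample. Counts of 9 to 57 for Gzma and 10 to 50 for Klrd1 limit what can be said of them.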

Other observations

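A few genes of cytotoxic lymphocytes, chosen after their values were seen, did not have KO TAM1 as their highest library. Gzmk, granzyme K, had 5 and 17 expected counts in WT TAM1 and WT TAM2 and 0 and 1 in KO TAM1 and KO TAM2. Eomes, a T-box factor of NK and memory CD8 T cells, was at 1.58 and 1.33 CPM in WT and at 0.509 and 0.378 CPM in KO libraries. Both rest on few counts.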
